A study of Mus musculus with 58 samples.

Results

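Liver was compared with kidney in mice that received vehicle and no solvent. The comparison covers 11 of the 58 libraries of a study of trichloroethylene (TCE) and tetrachloroethylene (PCE), chosen by the labelled tissue and a labelled dose of 0. There were 6 liver libraries, numbered 1, 2, 3, 16, 17 and 18, and 5 kidney libraries, numbered 1, 2, 3, 16 and 17. Libraries 1 to 3 of a tissue are labelled as controls of the TCE set and the higher numbers as controls of the PCE set. Both sets of both tissues had the same treatment: male mice, aged 5 to 6 weeks when obtained, were given 1 intragastric dose of 5 mL/kg of saline with 5% Alkamuls EL-620, a surfactant made from castor oil. The protocol text names B6C3F1/J, a hybrid strain, while the strain label reads C57BL/6. How long after the dose tissues were taken is not given in the sources used here. Labels do not say whether liver and kidney libraries of the same number share an animal, and p-values reflect the spread between libraries, which may be technical.

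The liver is the main site of oxidation and conjugation of foreign compounds, of bile acid synthesis and of lipoprotein secretion. The kidney filters blood and recovers solutes along its tubules, and the proximal tubule also secretes organic anions and cations. TCE and PCE are handled by 2 routes in textbook accounts: oxidation by cytochrome P450 enzymes, above all CYP2E1, and conjugation to glutathione, after which the conjugate is trimmed to a cysteine conjugate and acetylated to a mercapturate. Carriers of the organic anion families take such conjugates into tubule cells.

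Whole-transcriptome libraries held 88048143 to 118064716 gene counts in liver and 23462407 to 31858055 in kidney. Levels are given as CPM: counts of a gene over the library size, which TMM normalizes for composition, scaled to the same total in each library. A fold change is log2 of liver over kidney with its standard error (SE), from edgeR's fit to 14523 genes. The adjusted p is from edgeR's glmTreat test against a fold of 2 unless the quasi-likelihood test against no difference is named. Kidney values are listed in the order of libraries 1, 2, 3, 16 and 17, and the 6 liver values by their lowest, median and highest. CPM does not correct for transcript length and is compared between tissues, not between genes. In whole organs, fewer cells of a type and less RNA per cell cannot be told apart.

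Both labels were checked against marker lists. All 12 hepatocyte markers were higher in liver, with a summed level of 174000 to 221000 CPM in liver and 303 to 453 CPM in kidney. All 12 proximal tubule markers were lower in liver, with 1110 to 1470 CPM in liver, most of it from the fatty acid transporter Slc27a2, and 51000 to 60800 CPM in kidney. Markers of the thick ascending limb summed to 1.46 to 2.69 CPM in liver and 692 to 825 CPM in kidney, and principal cell markers of the collecting duct to 0.0147 to 0.0441 and 459 to 525 CPM. Not every list followed its organ. Of 6 cholangiocyte markers, 1 was higher and 4 were lower in liver, with sums of 15.6 to 22.6 CPM in liver and 113 to 142 CPM in kidney. Of 6 renal endothelial markers, 1 was higher and 1 lower in liver.

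Some libraries stood apart. The 12 acute phase genes, hepatocyte genes induced in inflammation, summed to 137000 CPM in liver library 1 and 74700 CPM in liver library 3, against 12200 to 17600 CPM in the other 4 liver libraries. Markers of Kupffer cells and other macrophages were at 606, 358 and 396 CPM in liver libraries 1, 3 and 17 and at 123 to 200 CPM in the other 3. Sinusoidal endothelial markers were at 455 CPM in liver library 17 and at 219 to 294 CPM in the others. In kidney, fat markers ran between 15.7 and 119 CPM, highest in library 2, and podocyte markers between 85 and 243 CPM, lowest in library 1. Kidney library 3 had 19.1% of its counts in its 10 most abundant genes, against 14.3 to 15.6% in the other 4, and the chi-square of its counts against each other kidney library, divided by degrees of freedom, was 122.7 to 162.8, against 16.9 to 40.2 for the other pairs. Without it 2145 genes were higher and 2819 lower in liver past a fold of 2. Without kidney library 2, 22 named genes that were higher in liver had a log2 fold change larger by 0.63 or more. Adrenal cortex markers, 9 in all, summed to 8.58 to 41.5 CPM in liver and 4.55 to 8.67 CPM in kidney. Only 3 of them passed the count filter, with 1 higher and 1 lower in liver past a fold of 2, so the sum has no common direction. The part of these differences in the results below was not tested beyond leaving libraries out. Replicates of liver varied more, with a biological coefficient of variation of 0.328 in liver against 0.141 in kidney.

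**Figure D1:**
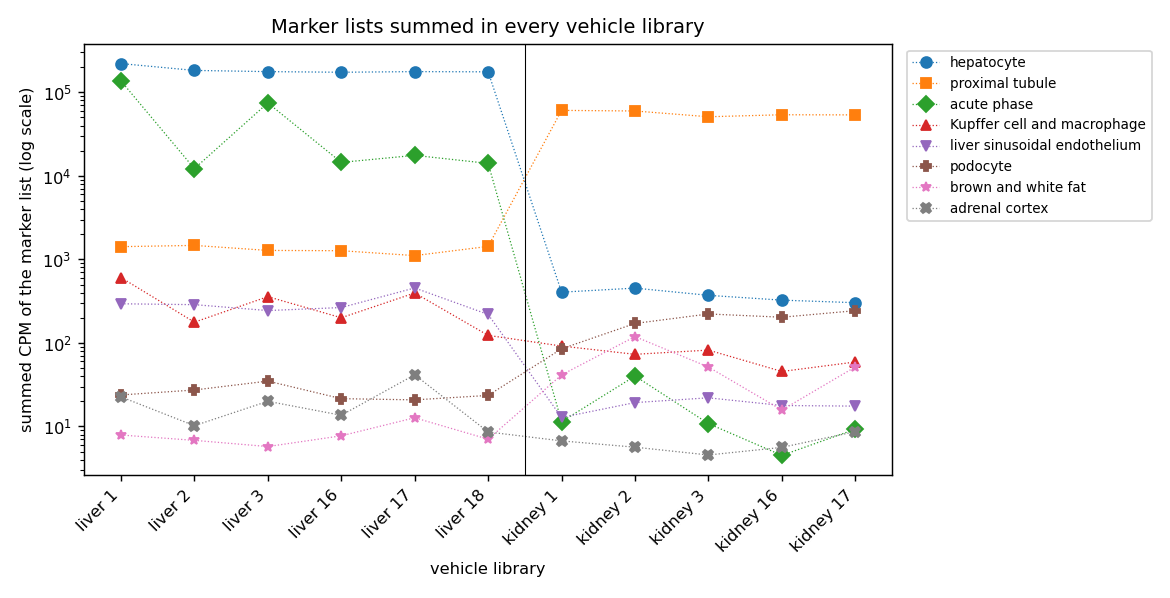
Summed CPM of 8 marker lists (vertical axis, log scale) in each of the 6 liver and 5 kidney vehicle libraries (horizontal axis), 1 point for each list and library. Hepatocyte markers stay at 174000 to 221000 CPM across liver, while acute phase genes reach 137000 and 74700 CPM in liver libraries 1 and 3 and 12200 to 17600 CPM in the other 4.

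More genes differed between the organs than did not. Of 14523 genes, 9709 (66.9%) passed the quasi-likelihood test at an adjusted p under 0.05, 4762 (32.8%) higher and 4947 (34.1%) lower in liver. Against a fold of 2, 4999 (34.4%) passed, 2138 (14.7%) higher and 2861 (19.7%) lower in liver. The split rests on the correction for composition. With library totals alone the median log2 fold change was -1.02, against 0.02 in the main fit. Past a fold of 2, 1233 genes were then higher and 5781 lower in liver. Counts of list members below are read against these shares. Of the called genes, 946 were over 10-fold higher in liver and 1463 over 10-fold lower, and 197 and 180 were over 1000-fold apart. In the dosed libraries, 23 of liver and 24 of kidney, the ranges of 1654 of the 2138 genes (77.4%) and 2426 of the 2861 (84.8%) lay apart in the same direction, which held for 15.7% and 21.2% of all genes tested.

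The genes with the highest CPM among those higher in liver encode secreted plasma proteins. Alb, which encodes serum albumin, was at 99700, 105000 and 125000 CPM in liver as lowest, median and highest, against 4.63, 54.3, 13.9, 5.84 and 7.75 CPM in kidney. Trf, which encodes transferrin, averaged 39400 ± 11500 CPM in liver (SD, n = 6) and 15.7 ± 14.2 CPM in kidney (SD, n = 5). The major urinary proteins Mup7 and Mup8 and the protease inhibitors Serpina1e, Serpina3k and Serpina1b averaged 18000 to 32300 CPM in liver and 1.9 to 25.5 CPM in kidney. These belong to families of near-identical genes, so the split of reads among members is uncertain. In kidney, Kap, an androgen-regulated gene of the mouse proximal tubule, was at 0, 0.00619 and 0.265 CPM in liver, against 41000, 38700, 32300, 31400 and 31000 CPM in kidney. Gpx3, which encodes the plasma glutathione peroxidase, averaged 5.31 ± 2.35 CPM in liver (SD, n = 6) and 22400 ± 3710 CPM in kidney (SD, n = 5). Ndrg1 and Timp3 averaged 23.8 and 14.4 CPM in liver and 3880 and 2720 CPM in kidney. The groups of none of the genes in this paragraph overlapped.

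Across 18 lists of genes by function, 543 of 569 genes passed the count filter. Of these, 227 were higher in liver past a fold of 2, 168 were lower and 148 were neither, and the groups overlapped for 5 of the called genes. Of all genes tested, called or not, 53.6% had ranges apart, which is not a like base for the called genes. The lists were ordered by their medians, with P450 families and lipoproteins at the liver end and ion, amino acid and organic ion transport at the kidney end.

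**Figure D2:**
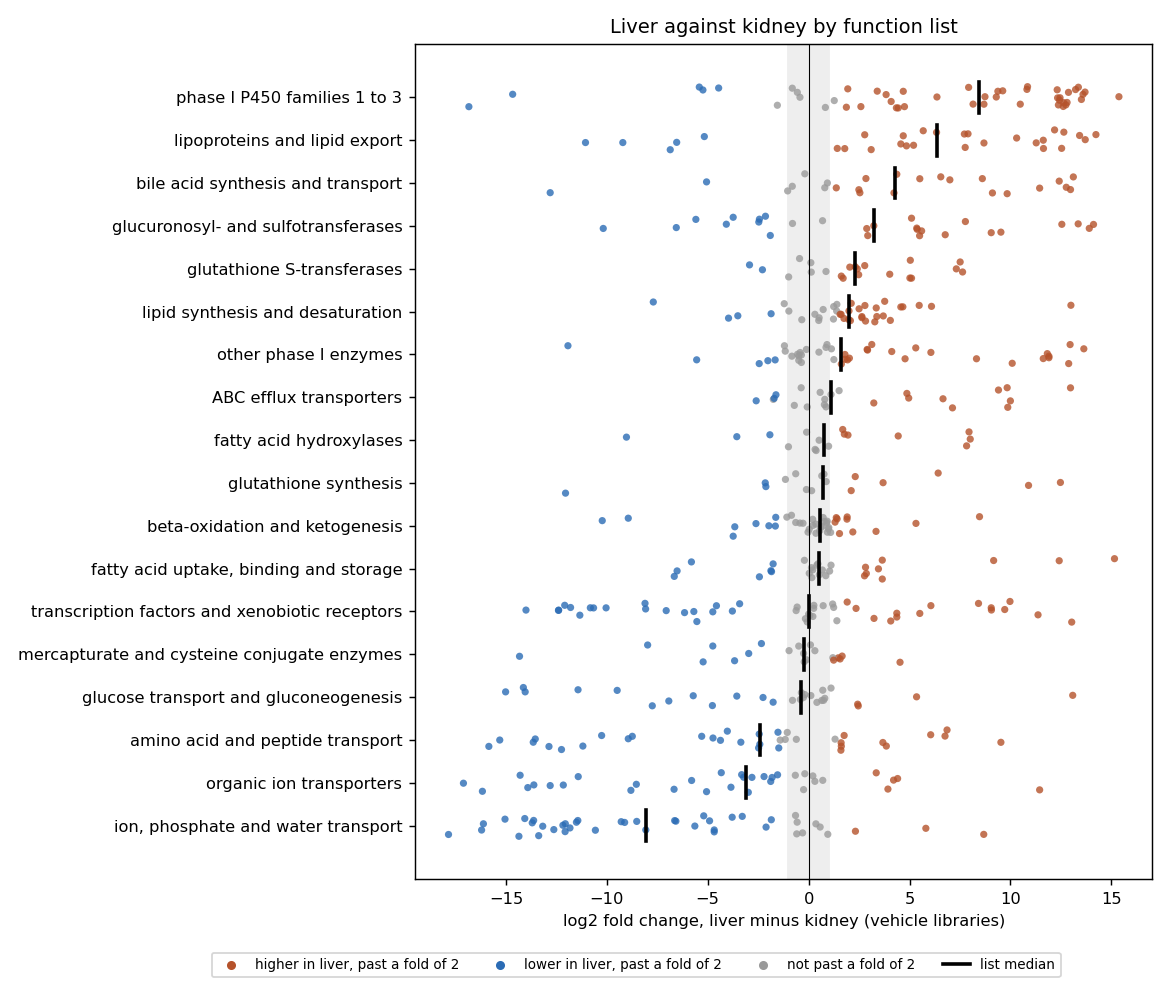
Log2 fold change of liver over kidney (horizontal axis) for every tested member of 18 function lists (vertical axis, ordered by median), 1 point for each gene and a bar at the list median, with the grey band at a fold of 2 or less. The medians run between 8.42 for P450 families 1 to 3 and -8.07 for ion, phosphate and water transport, and most lists hold genes on both sides.

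Cytochrome P450 enzymes of families 1 to 3 oxidise drugs, solvents and steroids. Of 48 tested genes, 37 were higher in liver past a fold of 2, 5 were lower and 6 were neither, against 14.7% and 19.7% of all genes. Their median log2 fold change was 8.42, or 7.26 with the 6 genes that had no count in kidney set at their lower bound. In the dosed libraries 41 of the 42 called genes had ranges apart in the same direction.

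Cyp2e1 (chromosome 7, 140763819 to 140774990, mm10), the main P450 of small solvents, was abundant in both organs. Its level was 6580, 8260 and 10600 CPM in liver as lowest, median and highest, against 2380, 2520, 1780, 2440 and 2150 CPM in kidney. Every liver library was above every kidney library, and the log2 fold change was 1.87 ± 0.19 (SE; adjusted p = 0.000123). It was 1.98 in the TCE set, 1.74 in the PCE set and 0.81 with library totals alone, where it no longer passed the test against a fold of 2.

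Most other liver-high P450 genes were close to absent from kidney. Cyp3a11 (chromosome 5, 145854607 to 145879854), an abundant mouse relative of human CYP3A4, was at 2250, 5340 and 6810 CPM in liver, against 0.0288, 1.37, 0.374, 0.0247 and 0.0209 CPM in kidney. Kidney library 2 was the highest of the kidney values, and all were far below liver. Its log2 fold change was 13.70 ± 1.04 (SE; adjusted p = 5.03e-08) and 15.33 without that library. Cyp2c50 averaged 90.1 ± 36.8 CPM in liver (SD, n = 6) and had no count in any kidney library, so it was at least 6120-fold higher in liver, with the floor at 3 counts over the kidney group. Cyp3a25 averaged 148 ± 37.9 CPM in liver (SD, n = 6) and had 2 counts in all kidney libraries, a ratio of 15400 with a 95% counting interval of 4260 to 127000. Other members, given here after their values were seen, were Cyp1a2 with means of 1330 and 0.177 CPM in liver and kidney, Cyp2c29 with 2030 and 0.214 CPM and Cyp2f2, a lung and liver enzyme, with 2670 and 10.9 CPM. Genes of the Cyp2c and Cyp3a clusters are close relatives, and reads may be split among them.

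A few P450 genes went the other way. Cyp2j13 (chromosome 4, 96042660 to 96077566), of the family that makes epoxides of arachidonic acid, had 1 count in the 6 liver libraries, against 504, 608, 405, 521 and 514 CPM in kidney. Its neighbour in the family, Cyp2j11, had 2 counts in liver, against 208, 178, 172, 138 and 164 CPM in kidney. Kidney exceeded liver by a ratio of 227000 for Cyp2j13 (95% counting interval 40700 to 8950000) and 38000 for Cyp2j11 (10500 to 314000). Another member, Cyp2j5, averaged 911 and 1600 CPM in liver and kidney and did not pass a fold of 2. Cyp2a4, a steroid hydroxylase with sex-dependent expression, averaged 7.95 ± 3.18 CPM in liver (SD, n = 6) and 341 ± 92.9 CPM in kidney (SD, n = 5), a log2 fold change of -5.42 ± 0.31 (SE; adjusted p = 3.44e-09). Its close relative Cyp2a5 averaged 517 and 85.9 CPM, a log2 fold change of 2.59. Cyp2b10, the usual target of the receptor CAR, was at 3.36, 10.7 and 19.9 CPM in liver, against 9.3, 3.61, 2.38, 2.47 and 3.43 CPM in kidney. Its groups overlapped, and the log2 fold change of 1.27 ± 0.46 (SE) did not pass a fold of 2 (adjusted p = 0.293). Without kidney library 1 it was 1.77 and passed.

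Other phase I enzymes were divided. Of 41 tested genes, 21 were higher in liver, 5 were lower and 15 were neither, with a median of 1.62. The carboxylesterases Ces2a, Ces3a and Ces1c averaged 89.5, 606 and 3230 CPM in liver and 0.00527, 0.0776 and 0.43 CPM in kidney. In the same family Ces2c averaged 81.3 ± 22.8 CPM in liver (SD, n = 6) and 446 ± 58.7 CPM in kidney (SD, n = 5), a log2 fold change of -2.45 ± 0.19 (SE; adjusted p = 1.06e-06). The hydroxysteroid dehydrogenase Akr1c21 (chromosome 13, 4574075 to 4586543) was at 0.167, 0.238 and 0.382 CPM in liver, against 844, 1020, 898, 990 and 1030 CPM in kidney. These groups did not overlap, and the log2 fold change was -11.93 ± 0.23 (SE; adjusted p = 5.76e-14). Of its relatives, Akr1c6 averaged 1480 and 0.406 CPM in liver and kidney. The flavin monooxygenase Fmo2 averaged 4.39 ± 0.959 CPM in liver (SD, n = 6) and 205 ± 15.8 CPM in kidney (SD, n = 5). Aldh2 and Adh1, which oxidise acetaldehyde and ethanol, averaged 3160 and 3020 CPM in liver and 779 and 792 CPM in kidney, and both were higher in liver past a fold of 2.

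Glutathione S-transferases carry out the conjugation step. Of 21 tested genes, 14 were higher in liver, 2 were lower and 5 were neither, with a median of 2.31. Mgst1 (chromosome 6, 138140527 to 138156755), a membrane-bound form, was at 3640, 5610 and 6190 CPM in liver, against 32.8, 41.3, 31, 26.3 and 28.4 CPM in kidney. Gstm3 and Gstm6 averaged 130 ± 44 and 184 ± 40.5 CPM in liver (SD, n = 6) and 0.658 ± 0.184 and 0.999 ± 0.281 CPM in kidney (SD, n = 5). These 3 had log2 fold changes of 7.32 to 7.63, with adjusted p of at most 4.94e-11. Gstt1, of the class that conjugates halogenated methanes, averaged 329 and 101 CPM in liver and kidney, a log2 fold change of 1.71 ± 0.20 (SE). Gstm5 averaged 14.5 ± 3.61 CPM in liver (SD, n = 6) and 111 ± 7.29 CPM in kidney (SD, n = 5), and Mgst3 averaged 12.5 ± 5.67 and 61.3 ± 4.41 CPM. Both were lower in liver past a fold of 2. Gstz1, which metabolises dichloroacetate, was at 7.86, 19.1 and 24.7 CPM in liver, against 9.3, 8.52, 11.1, 10.3 and 10.1 CPM in kidney. Its groups overlapped, and its log2 fold change of 0.86 ± 0.25 (SE) did not pass a fold of 2 (adjusted p = 0.902).

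The enzymes that turn glutathione conjugates into mercapturates differed in both directions. Of 20 tested genes, 5 were higher in liver, 7 were lower and 8 were neither, with a median of -0.23. Ggt1 (chromosome 10, 75561076 to 75586193), which removes the glutamate at the cell surface, was at 0.0372, 0.0869 and 0.147 CPM in liver, against 2100, 2020, 1610, 1820 and 1750 CPM in kidney. No values overlapped, and the log2 fold change was -14.33 ± 0.28 (SE; adjusted p = 5.76e-14). Dpep1, the dipeptidase of the next step, was at 0.528, 0.739 and 0.879 CPM in liver, against 144, 176, 167, 218 and 222 CPM in kidney, a log2 fold change of -7.98 ± 0.18 (SE). Acy3, which removes the acetyl group of mercapturates, averaged 5.31 ± 0.926 CPM in liver (SD, n = 6) and 200 ± 10.2 CPM in kidney (SD, n = 5). It has 4 RefSeq transcripts, whose shared reads the counting may have set aside. Anpep, which encodes aminopeptidase N, another enzyme of this step, averaged 215 and 232 CPM in liver and kidney and did not pass.

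Kyat1 (chromosome 2, 30185124 to 30206295) encodes a cysteine conjugate beta-lyase, which cleaves such conjugates to reactive thiols. It was at 336, 378 and 688 CPM in liver, against 156, 154, 124, 146 and 143 CPM in kidney. All liver libraries were above all kidney libraries, and library 17 was far above the other 5. The log2 fold change was 1.56 ± 0.18 (SE; adjusted p = 0.0026), 1.38 without liver library 17 and 0.52 with library totals alone, where the call was lost.

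The N-acetyltransferases of the Nat8 family complete the mercapturate. Nat8 (chromosome 6, 85830387 to 85836857) was at 28.1, 45 and 50 CPM in liver, against 334, 337, 292, 346 and 313 CPM in kidney, a log2 fold change of -2.97 ± 0.16 (SE; adjusted p = 1.29e-08). Nat8f2, a paralog, was at 1210, 1870 and 2010 CPM in liver, against 74.7, 93.9, 61.1, 78.9 and 68 CPM in kidney, a log2 fold change of 4.53 ± 0.20 (SE; adjusted p = 2.24e-10). The paralogs therefore had opposite directions. Nat8f4 averaged 20.8 ± 5.17 CPM in liver (SD, n = 6) and 6.57 ± 1 CPM in kidney (SD, n = 5), Nat8f6 averaged 3.2 and 86.2 CPM, and Nat8f1 averaged 351 and 330 CPM. How reads were split among these related genes is uncertain.

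Glutathione synthesis draws on methionine. Of 16 tested genes, 6 were higher in liver, 3 were lower and 7 were neither, with a median of 0.70. The methionine cycle genes Mat1a, Bhmt and Gnmt averaged 2880 ± 525, 7250 ± 2140 and 2470 ± 565 CPM in liver (SD, n = 6) and 0.511 ± 0.924, 3.81 ± 2.63 and 28.8 ± 2.44 CPM in kidney (SD, n = 5). Their log2 fold changes were 12.48, 10.90 and 6.42, with adjusted p of at most 3.07e-07. Kidney library 2 held 2.14 CPM of Mat1a, against 0 to 0.397 CPM in the other 4, and without it the log2 fold change of Mat1a was 14.68. Gss, which encodes glutathione synthetase, averaged 8.34 and 37 CPM in liver and kidney, and Ggct averaged 11.9 and 51.6 CPM. The subunits of the rate-limiting ligase, Gclc and Gclm, averaged 499 and 208 CPM in liver and 274 and 225 CPM in kidney, and neither passed a fold of 2.

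**Figure D3:**
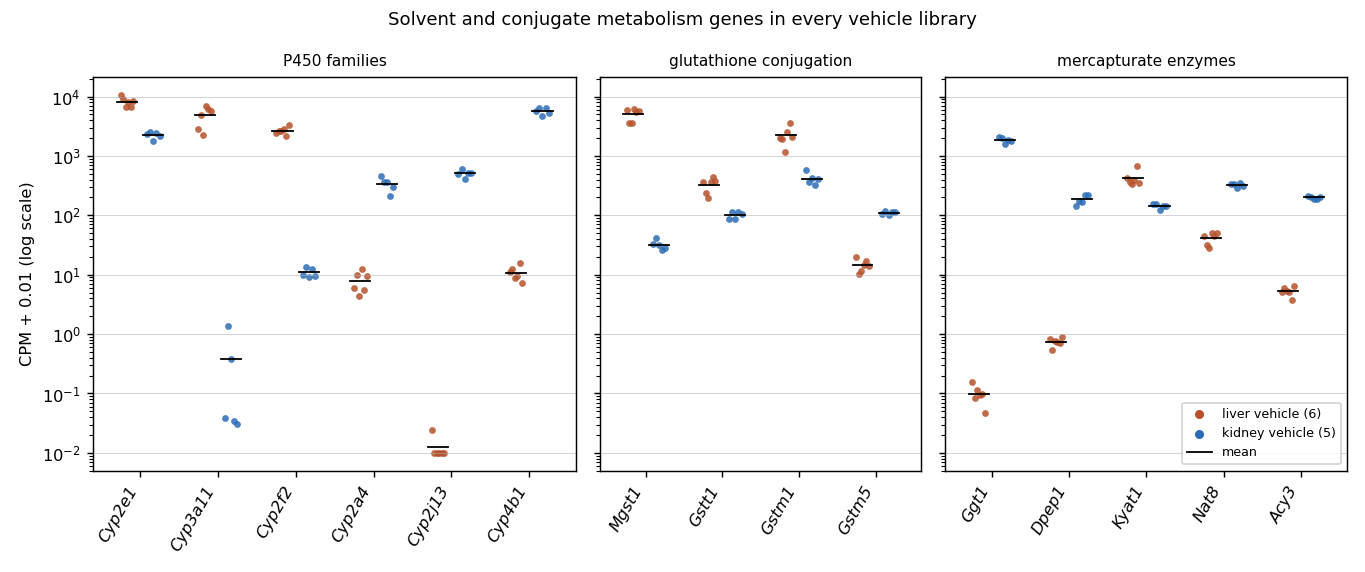
CPM plus 0.01 on a log axis for 15 genes of P450 oxidation, glutathione conjugation and mercapturate formation, with 1 point for each of the 6 liver libraries (left of each pair) and 5 kidney libraries (right), and a bar at the mean. Cyp2e1 is at 6580 to 10600 CPM in liver and 1780 to 2520 CPM in kidney, while Ggt1 is at 0.0372 to 0.147 CPM in liver and 1610 to 2100 CPM in kidney.

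Glucuronosyl- and sulfotransferases also differed by member. Of 27 tested genes, 16 were higher in liver, 9 were lower and 2 were neither, with a median of 3.23. Ugt2b1 and Ugt2b36 averaged 1400 ± 345 and 852 ± 182 CPM in liver (SD, n = 6) and 0.0901 ± 0.126 and 0.0815 ± 0.134 CPM in kidney (SD, n = 5). Sult2a8 averaged 37.7 ± 20.1 CPM in liver (SD, n = 6) and had no count in kidney, at least 2560-fold higher in liver. On the kidney side, Ugt8a, whose product makes galactosylceramide, was at 0.0619, 0.129 and 0.191 CPM in liver, against 126, 134, 144, 149 and 163 CPM in kidney. Its groups lay apart with a log2 fold change of -10.18 ± 0.21 (SE). Ugt1a7c averaged 2.16 ± 0.809 CPM in liver (SD, n = 6) and 205 ± 26.1 CPM in kidney (SD, n = 5), and Sult1c2 averaged 2.81 ± 0.767 and 135 ± 12.7 CPM. Genes of the Ugt1a locus share all but their first exon, so the counting may have set aside reads of the shared exons.

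Organic ion transporters were mostly kidney genes. Of 34 tested genes, 5 were higher in liver, 23 were lower and 6 were neither, with a median of -3.11, and 27 of the 28 called genes had ranges apart in the same direction in the dosed libraries. Slc22a6 (chromosome 19, 8617996 to 8628299) encodes OAT1, the basolateral uptake carrier of organic anions. It was at 0.0123, 0.015 and 0.044 CPM in liver, against 1880, 2020, 1440, 1970 and 1760 CPM in kidney, a log2 fold change of -16.17 ± 0.28 (SE; adjusted p = 3.52e-14). Slc22a12 (chromosome 19, 6535854 to 6543070), the urate exchanger of the brush border, was at 0, 0.0135 and 0.0366 CPM in liver, against 2840, 2560, 2130, 2590 and 2400 CPM in kidney. The liver values came from 10 and 7 counts over the 6 libraries. Slco1a6 averaged 0.0106 ± 0.0122 CPM in liver (SD, n = 6) and 268 ± 18.2 CPM in kidney (SD, n = 5). Slc22a8, which encodes OAT3, had no count in liver and 6.65, 9.49, 9.46, 11.7 and 11 CPM in kidney, at least 1440-fold lower in liver. It has 3 RefSeq transcripts, and its level is uncertain for that reason. Slc22a2, a basolateral carrier of organic cations, averaged 1.47 and 548 CPM in liver and kidney, and its efflux partner Slc47a1 averaged 179 and 827 CPM.

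Liver-high carriers were fewer than kidney-high ones, at 14.7% of the tested list, which is also the share among all genes (14.7%). Slco1b2 (chromosome 6, 141629452 to 141686646), the mouse counterpart of the human hepatic OATP1B carriers, was at 614, 939 and 1220 CPM in liver, against 0.432, 0.606, 0.21, 0.198 and 0.23 CPM in kidney. No values overlapped, with a log2 fold change of 11.45 ± 0.40 (SE; adjusted p = 1.08e-11). Slc22a15 and Slco2b1 averaged 15.6 ± 3.11 and 4.01 ± 2.59 CPM in liver (SD, n = 6) and 0.729 ± 0.0992 and 0.213 ± 0.0765 CPM in kidney (SD, n = 5). Another carrier was found in both organs. Slc22a7, which encodes the anion carrier OAT2, was at 145, 199 and 333 CPM in liver, against 475, 326, 362, 235 and 356 CPM in kidney. These values overlapped, and the log2 fold change of -0.66 ± 0.22 (SE) passed the quasi-likelihood test (adjusted p = 0.015) but not a fold of 2. With library totals alone it was -1.74 and passed.

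ABC transporters export drugs, lipids and bile salts. Of 23 tested genes, 10 were higher in liver, 3 were lower and 10 were neither, with a median of 1.11. The bile salt pump gene Abcb11 (chromosome 2, 69238282 to 69342616) was at 799, 899 and 1150 CPM in liver, against 0, 0.527, 0.0467, 0 and 0.0209 CPM in kidney, a log2 fold change of 12.98 ± 0.69 (SE), or 15.51 without kidney library 2. The lipid transporter Abca6 and the sterol transporter Abcg5 averaged 118 ± 51.7 and 71.4 ± 15.6 CPM in liver (SD, n = 6) and 0.112 ± 0.0575 and 0.0768 ± 0.052 CPM in kidney (SD, n = 5). The other 3 named members were lower in liver. Abcg2, the breast cancer resistance protein gene, was at 110, 140 and 161 CPM in liver, against 441, 428, 413, 417 and 434 CPM in kidney, a log2 fold change of -1.62 ± 0.11 (SE; adjusted p = 2.63e-05). Abcc1 averaged 1.86 and 11.2 CPM in liver and kidney. Abcc5 averaged 7.7 and 25.2 CPM, and its call was lost in the PCE set alone (-1.52) and with DESeq2 (-1.68).

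The bile acid list combines synthesis, hepatic carriers and the intestinal and renal salvage carriers. Of 24 tested genes, 17 were higher in liver, 2 were lower and 5 were neither, with a median of 4.30. Cyp7a1 (chromosome 4, 6265612 to 6275632), the rate-limiting enzyme of bile acid synthesis, was at 64.3, 147 and 238 CPM in liver, against 0, 0.105, 0, 0 and 0 CPM in kidney. All 4 kidney counts came from library 2. Cyp8b1 (chromosome 9, 121914356 to 121916305), which sets the share of cholic acid, was at 1090, 1160 and 1240 CPM in liver, against 0.0576, 0.396, 0.163, 0.0247 and 0.0209 CPM in kidney. Slc10a1 (chromosome 12, 80953185 to 80968705), the sinusoidal uptake carrier NTCP, was at 220, 343 and 416 CPM in liver, against 0.806, 0.501, 0.724, 1.19 and 0.919 CPM in kidney. The groups of these 3 genes were apart, with log2 fold changes of 12.77 ± 0.61, 13.12 ± 0.50 and 8.61 ± 0.27 (SE) and adjusted p of at most 3.23e-10. Without kidney library 2 that of Cyp8b1 was 14.06, and Cyp7a1 had no kidney count left to set a fold against.

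The subunits of the basolateral bile acid exporter were kidney genes. Slc51a was at 0, 0.0135 and 0.0294 CPM in liver, against 119, 131, 80.9, 125 and 103 CPM in kidney, and Slc51b at 0.197, 0.886 and 2.04 CPM in liver, against 33, 34.5, 29.9, 32.9 and 30.5 CPM in kidney. Neither pair of groups overlapped, with log2 fold changes of -12.81 ± 0.26 and -5.06 ± 0.42 (SE). Slc10a2 (chromosome 8, 5083219 to 5105287), the apical uptake carrier ASBT, did not separate the organs. It was at 4.56, 9.94 and 23.2 CPM in liver, against 31.5, 20.1, 23.3, 13 and 19.2 CPM in kidney, and the groups overlapped. Its log2 fold change was -0.81 ± 0.33 (SE), with an adjusted p of 0.0449 in the quasi-likelihood test and 0.895 against a fold of 2. With library totals alone it was -1.85 and passed.

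Fatty acid hydroxylases of the Cyp4 family, several of them targets of the receptor PPAR alpha, were less one-sided. Of 16 tested genes, 7 were higher in liver, 3 were lower and 6 were neither, with a median of 0.75, and 7 of the 10 called genes had ranges apart in the same direction in the dosed libraries. Cyp4v3, Cyp4f15 and Cyp4f14 averaged 809 ± 192, 224 ± 23.3 and 23.4 ± 12.4 CPM in liver (SD, n = 6) and 3.27 ± 0.689, 0.986 ± 0.178 and 0.0886 ± 0.0544 CPM in kidney (SD, n = 5). Cyp4b1 (chromosome 4, 115624698 to 115647721), which activates several protoxins, was at 7.24, 10.4 and 15.7 CPM in liver, against 5710, 6290, 4720, 6440 and 5330 CPM in kidney, a log2 fold change of -9.03 ± 0.27 (SE; adjusted p = 2.38e-12). Cyp4a10 was at 15.2, 38.4 and 104 CPM in liver, against 207, 203, 217, 168 and 179 CPM in kidney. Its groups were apart, and the log2 fold change of -1.92 ± 0.40 (SE) passed a fold of 2 (adjusted p = 0.0149) but not in either vehicle set alone, where it was -2.10 and -1.68. Cyp4a14 was at 1.26, 4.9 and 15.7 CPM in liver, against 7.66, 11.2, 6.03, 5.89 and 7.81 CPM in kidney. The liver range enclosed the kidney values, and the log2 fold change of -0.10 ± 0.55 (SE) was not called (adjusted p = 0.881, quasi-likelihood test). Cyp4a genes are close relatives, and their split of reads is uncertain.

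Genes of fatty acid oxidation differed in both directions, and a gene of ketone body use was high in kidney. Of 40 tested genes of beta-oxidation and ketogenesis, 10 were higher in liver, 8 were lower and 22 were neither, or 25% higher and 20% lower against 14.7% and 19.7% of all genes, with a median of 0.58. By the quasi-likelihood test without a fold threshold, 19 were higher and 12 were lower in liver. Oxct1 (chromosome 15, 4026428 to 4155344), which activates ketone bodies for use as fuel, was at 2.97, 3.13 and 3.83 CPM in liver, against 1660, 1610, 1540, 1440 and 1650 CPM in kidney. Its groups did not overlap, and the log2 fold change was -8.94 ± 0.15 (SE). The thiolase gene Acaa2 averaged 1450 ± 206 CPM in liver (SD, n = 6) and 144 ± 24.4 CPM in kidney (SD, n = 5), and the fasting hormone gene Fgf21 averaged 4.53 ± 2.56 and 0.109 ± 0.14 CPM. Acsm2 had 2 counts in liver and averaged 7.88 ± 1 CPM in kidney (SD, n = 5), and Bdh2 averaged 2.04 and 27.4 CPM in liver and kidney. Cpt1a, the gate of mitochondrial fatty acid entry, averaged 297 and 361 CPM, and the medium-chain dehydrogenase gene Acadm averaged 375 and 1160 CPM, of which only Acadm passed a fold of 2. Acot1, a PPAR alpha target outside the lists, was at 5.45, 18.4 and 26.7 CPM in liver, against 68.5, 61.5, 62.8, 52.7 and 47 CPM in kidney, with groups apart. Its log2 fold change of -1.79 ± 0.34 (SE; adjusted p = 0.014) lost the call in the PCE set alone (-1.24), with DESeq2 (-1.79) and without liver libraries 1 and 17 (-1.54).

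Lipid synthesis was on the liver side. Of 38 tested genes, 23 were higher in liver, 4 were lower and 11 were neither, with a median of 2.00, and 19 of the 27 called genes had ranges apart in the same direction in the dosed libraries. The fatty acid elongase gene Elovl3 (chromosome 19, 46131897 to 46135694) was at 1500, 1770 and 2220 CPM in liver, against 0.201, 0.633, 0.234, 0 and 0.0627 CPM in kidney, a log2 fold change of 13.00 ± 0.63 (SE; adjusted p = 3.13e-10), or 13.85 without kidney library 2. Fdps, of cholesterol synthesis, averaged 24.4 ± 8.63 CPM in liver (SD, n = 6) and 0.349 ± 0.158 CPM in kidney (SD, n = 5). Thrsp, a lipogenic gene also active in fat, was at 200, 336 and 737 CPM in liver, against 3.28, 21.1, 5.05, 2.23 and 11.8 CPM in kidney. It was highest in kidney library 2, which also had the highest summed fat markers at 119 CPM. Elovl7, Fads3 and Scd2 averaged 0.433, 15 and 7.85 CPM in liver and 90.1, 234 and 89.7 CPM in kidney, and each was lower in liver. The isoforms of a step could differ in direction: Scd1 averaged 3510 and 137 CPM in liver and kidney, a log2 fold change of 4.67 ± 0.49 (SE), while that of Scd2 was -3.51 ± 0.16 (SE).

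All 29 tested lipoprotein and lipid export genes differed past a fold of 2, 24 higher and 5 lower in liver, with a median of 6.34. Apof and Apon, minor plasma apolipoproteins, averaged 1480 ± 428 and 953 ± 283 CPM in liver (SD, n = 6) and 0.111 ± 0.169 and 0.0865 ± 0.115 CPM in kidney (SD, n = 5). Apoc1 averaged 40.9 ± 13.4 CPM in liver (SD, n = 6) and had no count in kidney, at least 2780-fold higher in liver. The 5 genes lower in liver were receptors, a receptor partner and a lipase. Lrp2 (chromosome 2, 69424335 to 69586029), which encodes megalin, the endocytic receptor of the proximal tubule, was at 2.39, 3.99 and 5.88 CPM in liver, against 2290, 2260, 2250, 2310 and 2390 CPM in kidney. Its partner Cubn was at 0.117, 0.172 and 0.269 CPM in liver, against 430, 343, 414, 349 and 418 CPM in kidney. Neither gene's groups overlapped, with log2 fold changes of -9.21 ± 0.29 and -11.06 ± 0.20 (SE). The remaining members were Vldlr, with 0.02 and 2.59 CPM in liver and kidney, the cubilin partner Amn, with 1.61 and 150 CPM, and the lipoprotein lipase gene Lpl, with 31.4 and 1130 CPM.

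Fatty acid uptake, binding and storage genes had no common direction. Of 28 tested genes, 9 were higher in liver, 7 were lower and 12 were neither, with a median of 0.49. Fabp1 (chromosome 6, 71199879 to 71205034), the liver fatty acid binding protein, was at 2120, 5330 and 7370 CPM in liver, against 6.02, 14.2, 5.54, 8.26 and 8.61 CPM in kidney. Slc27a5, which links bile acids to coenzyme A, averaged 1520 ± 205 CPM in liver (SD, n = 6) and 0.276 ± 0.157 CPM in kidney (SD, n = 5), and Fabp2 averaged 77.2 ± 20 CPM in liver (SD, n = 6) and had no count in kidney, at least 5250-fold higher in liver. The heart form Fabp3 was at 0.256, 0.496 and 0.897 CPM in liver, against 51.2, 50.4, 50.8, 54.5 and 61 CPM in kidney, a log2 fold change of -6.66 ± 0.24 (SE). The acyl-CoA synthetase and transporter gene Slc27a2 was at 1080, 1340 and 1450 CPM in liver, against 5360, 4360, 4340, 4130 and 3980 CPM in kidney, a log2 fold change of -1.76 ± 0.15 (SE; adjusted p = 6.07e-05). Cd36 averaged 0.143 and 13.5 CPM in liver and kidney and has 5 RefSeq transcripts. Cidea, a brown fat gene, averaged 0.0234 CPM in liver and was at 0.835, 1.58, 1.05, 0.89 and 2.55 CPM in kidney. The fat markers summed to 5.74 to 12.7 CPM in liver and 15.7 to 119 CPM in kidney. The share of fat in these values was not tested.

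**Figure D4:**
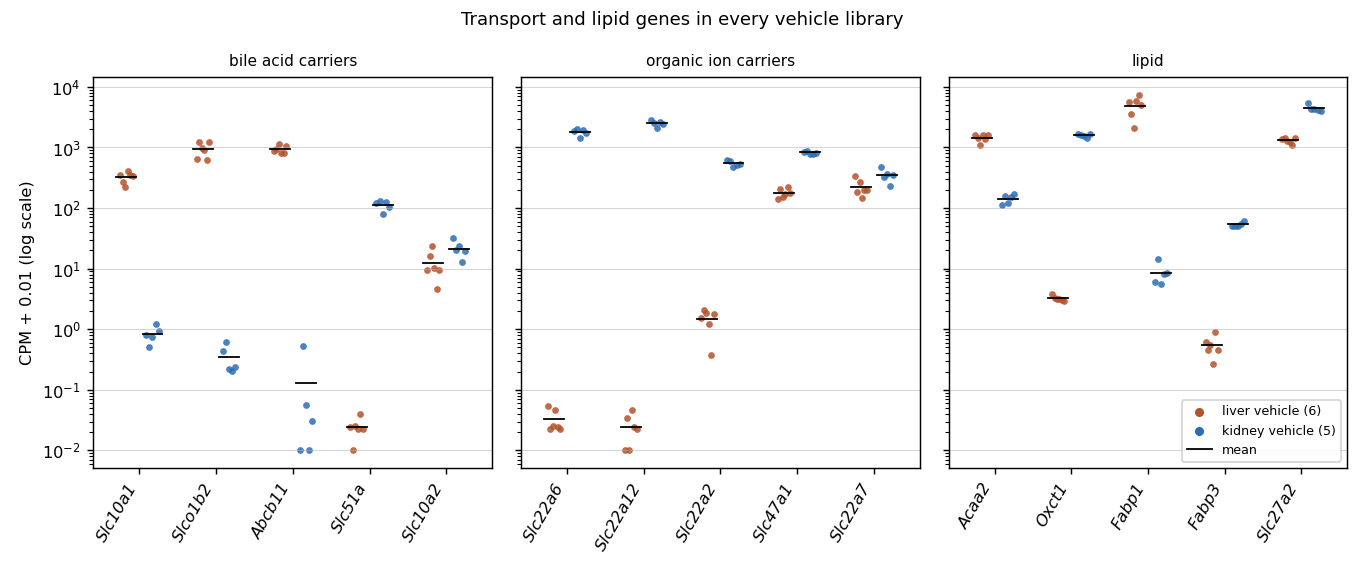
CPM plus 0.01 on a log axis for 15 genes of bile acid carriage, organic ion carriage and lipid handling, with 1 point for each of the 6 liver libraries (left of each pair) and 5 kidney libraries (right), and a bar at the mean. Slc22a6 is at 0.0123 to 0.044 CPM in liver and 1440 to 2020 CPM in kidney, while the values of Slc10a2 and Slc22a7 overlap.

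Among genes of glucose handling, several carriers were high in kidney. Of 28 tested genes of glucose handling, 4 were higher in liver, 12 were lower and 12 were neither, with a median of -0.39. Of the 28, 6 have 2 or more RefSeq transcripts, and levels of such genes are uncertain. The glycogen phosphorylase gene Pygl averaged 590 ± 141 CPM in liver (SD, n = 6) and 14.5 ± 2.84 CPM in kidney (SD, n = 5). Pklr, at 0.162, 1.33 and 2.17 CPM in liver, against 0.0576, 0.105, 0.304, 0.371 and 0.251 CPM in kidney, overlapped between the organs, and its log2 fold change of 2.46 ± 0.63 (SE; adjusted p = 0.0194) lost the call in the PCE set alone (1.57) and with library totals (1.44). The glucose cotransporter Slc5a2 (chromosome 7, 128265683 to 128272430), or SGLT2, was at 0, 0.00736 and 0.0366 CPM in liver, against 319, 458, 421, 671 and 714 CPM in kidney. Kidney libraries 16 and 17 were the highest, and the log2 fold change was -15.02 ± 0.45 (SE; adjusted p = 1.93e-12). Slc5a8, a lactate carrier, and Slc5a10, a mannose and fructose carrier, averaged 0.0127 and 0.0115 CPM in liver and 280 and 226 CPM in kidney. G6pc, Pck1 and Fbp1, enzymes of gluconeogenesis given here after their values were seen, averaged 1030, 2550 and 1250 CPM in liver and 774, 1630 and 1160 CPM in kidney, and none passed a fold of 2.

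Amino acid and peptide transport leaned to kidney. Of 35 tested genes, 10 were higher in liver, 20 were lower and 5 were neither, with a median of -2.42. Slc38a4, a neutral amino acid carrier, averaged 1260 ± 173 CPM in liver (SD, n = 6) and 1.69 ± 0.643 CPM in kidney (SD, n = 5), and the arginine carrier Slc7a2 averaged 7.56 ± 5.78 and 0.0642 ± 0.0476 CPM. Slc6a12, the betaine carrier, was at 134, 140 and 156 CPM in liver, against 4.66, 0.237, 1.05, 0.0247 and 0.313 CPM in kidney, a log2 fold change of 6.86 ± 0.78 (SE) and of 8.42 without kidney library 1. Slc7a13, a cystine and acidic amino acid carrier, was at 0, 0.00736 and 0.0369 CPM in liver, against 1140, 903, 909, 771 and 870 CPM in kidney. The sulfate carrier Slc13a1, grouped with this list, had 2 counts in liver and averaged 269 ± 23.6 CPM in kidney (SD, n = 5). Cltrn (chromosome X, 164090187 to 164118859), or collectrin, which brings apical amino acid carriers to the membrane, was at 0.0456, 0.0987 and 0.183 CPM in liver, against 1320, 1690, 1430, 1420 and 1580 CPM in kidney. No values overlapped, with a log2 fold change of -13.65 ± 0.29 (SE; adjusted p = 8.66e-14).

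Ion, phosphate and water transport had the lowest median of the 18 lists. Of 43 tested genes, 3 were higher in liver, 33 were lower and 7 were neither, with a median of -8.07, or -6.85 with the 12 genes that had no count in liver set at their bound. The phosphate carrier Slc34a1 (chromosome 13, 55399622 to 55414695) was at 0, 0.0299 and 0.0488 CPM in liver, against 6170, 7500, 6140, 8370 and 8550 CPM in kidney, a log2 fold change of -17.85 ± 0.39 (SE; adjusted p = 1.11e-13). The vasopressin-regulated water channel gene Aqp2 had no count in liver and averaged 151 ± 28.6 CPM in kidney (SD, n = 5), at least 22400-fold lower in liver. Umod, the defining gene of the thick ascending limb, had no count in liver and was at 32.6, 21.9, 33.9, 21.6 and 30.1 CPM in kidney, at least 4170-fold lower in liver. It has 2 RefSeq transcripts in the table. Slc34a2, another phosphate carrier, was at 7.44, 12 and 20.1 CPM in liver, against 4.43, 2.19, 1.87, 2 and 1.78 CPM in kidney, a log2 fold change of 2.32 ± 0.30 (SE), or 1.27 with library totals alone, where the call was lost. Aqp8 averaged 2.89 ± 0.992 CPM in liver (SD, n = 6) and 0.0511 ± 0.0299 CPM in kidney (SD, n = 5), and the glycerol channel gene Aqp9 averaged 0.866 CPM in liver and had no count in kidney.

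Genes with several RefSeq transcripts had lower counts as a class: those with 2 or more had a median of 1.29 CPM, against 14.2 CPM for those with 1. Acy3 and Umod, above, exceeded both medians in kidney, but whether they lost shared reads was not tested. Among list members, the factor gene Cebpb, with 3 transcripts, had no count in any of the 11 libraries, and Cebpa, with 5, had 6 counts in liver and none in kidney. Such rows are not readings of absence. Within 1 gene the organs were compared on the same transcripts, but the share of reads set aside may differ between organs, which was not tested. With single-transcript genes alone 1759 were higher and 2369 lower in liver past a fold of 2. That fit leaves the other genes out and cannot show whether their fold changes hold.

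Transcription factors and xenobiotic receptors completed the lists. Of 47 tested genes, 15 were higher in liver, 19 were lower and 13 were neither, with a median of 0.00. Of the 47, 19 have 2 or more RefSeq transcripts, so low levels in this list are uncertain. The liver factor Onecut1 was at 4.66, 12.5 and 50.8 CPM in liver, highest in library 16, and had no count in kidney, at least 1210-fold higher in liver. Its relative Onecut2 averaged 83.5 ± 16.8 CPM in liver (SD, n = 6) and 0.031 ± 0.0572 CPM in kidney (SD, n = 5), and the hepatic factor Foxa3 averaged 76.4 ± 13.7 and 0.0731 ± 0.0267 CPM. Of the xenobiotic receptors, Nr1i3, or CAR, averaged 5.95 CPM in liver with 1 count in kidney, Nr1i2, or PXR, averaged 8.72 and 0.514 CPM in liver and kidney, Ahr 43.6 and 4.63 CPM and Ppara 3.23 and 0.857 CPM. All 4, named after their values were seen, were higher in liver past a fold of 2. On the kidney side, Emx2 had no count in liver and averaged 34.9 ± 4.1 CPM in kidney (SD, n = 5), at least 5190-fold lower in liver. Its relative Emx1 and the renal development gene Pax2 had 2 counts and 1 count in liver and averaged 35.6 ± 3.63 and 23.4 ± 3.65 CPM in kidney (SD, n = 5).

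Hnf4a encodes a nuclear receptor used in both liver and proximal tubule. It was at 638, 841 and 1140 CPM in liver, against 869, 923, 835, 1040 and 1030 CPM in kidney. The groups overlapped, with a log2 fold change of -0.16 ± 0.16 (SE) and a quasi-likelihood adjusted p of 0.408.

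**Figure D5:**
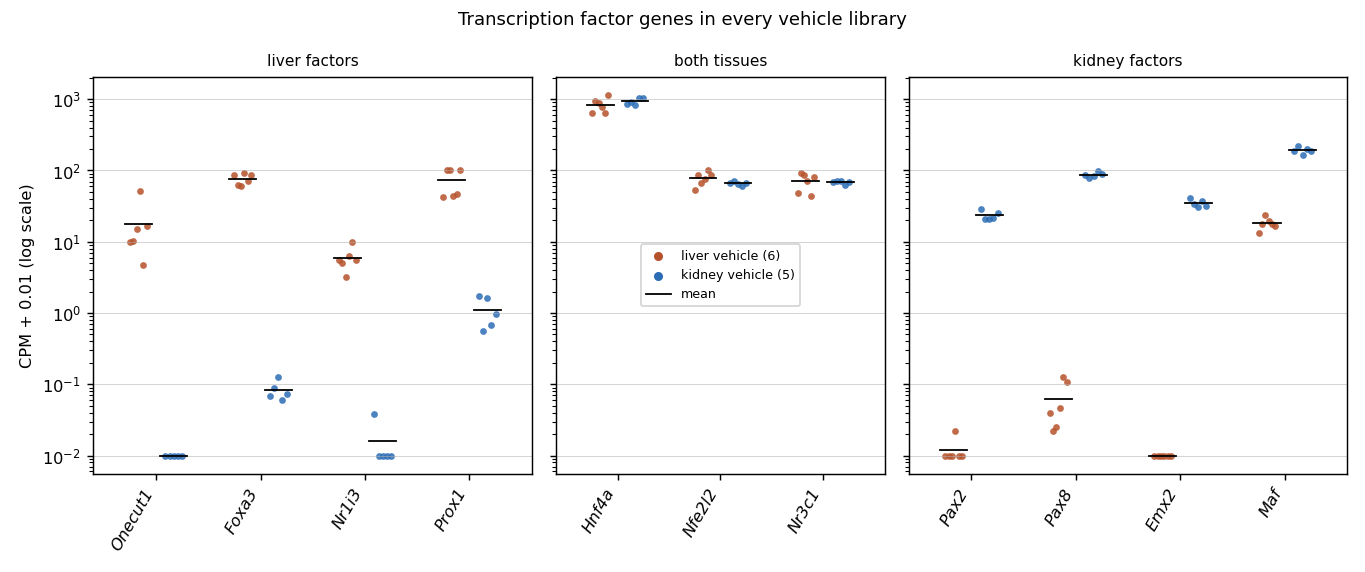
CPM plus 0.01 on a log axis for 11 transcription factor genes, with 1 point for each of the 6 liver libraries (left of each pair) and 5 kidney libraries (right), and a bar at the mean. Hnf4a is at 638 to 1140 CPM in liver and 835 to 1040 CPM in kidney, while Onecut1 has no count in kidney and Emx2 none in liver.

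Promoters of the named genes were searched for the letters CAAAGTCCA, part of the HNF4 site, on both strands. The windows held 250 bases before and 50 after the start of a gene in RefSeq (GRCm38.p6, whose chromosomes are those of mm10), and 99 of the 125 named genes had one. The promoters of 3 held the letters, from 2 liver genes and 1 kidney gene, and are shown in full with the match in capitals. The Cyp3a11 window is chr5:145879805-145880104, the Cyp8b1 window chr9:121916256-121916555 and the Nat8 window chr6:85832230-85832529, all of genes on the minus strand and read along the gene. The first base of the match lay at -109 and -67 from the start in Cyp3a11 and Cyp8b1, and at 3 in Nat8, where the letters run on the opposite strand. Nat8 has 2 annotated starts, and the window shown is that of the inner one.
Cyp3a11: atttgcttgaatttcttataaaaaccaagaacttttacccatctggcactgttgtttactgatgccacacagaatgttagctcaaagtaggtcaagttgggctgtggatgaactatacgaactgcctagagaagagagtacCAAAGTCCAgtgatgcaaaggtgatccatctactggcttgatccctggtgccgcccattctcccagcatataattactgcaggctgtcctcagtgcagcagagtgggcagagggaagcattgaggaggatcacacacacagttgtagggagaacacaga
Cyp8b1: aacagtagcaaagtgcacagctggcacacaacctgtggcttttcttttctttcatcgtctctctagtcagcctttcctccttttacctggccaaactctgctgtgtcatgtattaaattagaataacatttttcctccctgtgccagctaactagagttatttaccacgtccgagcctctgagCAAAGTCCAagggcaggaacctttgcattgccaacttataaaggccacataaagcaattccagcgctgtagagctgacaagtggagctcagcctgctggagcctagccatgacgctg
Nat8: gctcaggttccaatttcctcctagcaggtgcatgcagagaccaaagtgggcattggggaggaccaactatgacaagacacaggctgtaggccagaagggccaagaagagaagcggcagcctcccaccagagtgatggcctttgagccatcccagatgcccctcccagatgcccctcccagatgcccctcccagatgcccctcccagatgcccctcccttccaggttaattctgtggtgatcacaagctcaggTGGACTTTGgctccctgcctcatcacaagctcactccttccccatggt
Over all genes, 1.46% of the windows of genes higher in liver past a fold of 2 held these letters, 0.608% of those lower in liver, 0.403% of other tested genes and 0.475% of all 32851 windows. A pair of further motifs was searched, the PPAR direct repeat and the estrogen-related receptor site TCAAGGTCA, which share the letters AGGTCA. They were in 0.1% and 0.452% of windows of genes higher in liver and 0% and 0.152% of those lower in liver, against 0.0396% and 0.423% of all windows. A match is a description of the letters and was not tested as a site.

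The organ difference was also fitted within each vehicle set. A test of the difference between the sets called 0 of 14523 genes in edgeR (718 at an unadjusted p under 0.05), with a smallest adjusted p of 0.906. The log2 fold changes of Ggt1 were -14.08 in the TCE set and -14.62 in the PCE set, and those of Slc22a6 were -16.08 and -16.29.

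In the dosed libraries, which had received TCE or PCE, the organ order of most of these genes was the same. CPM in this paragraph was normalized by TMM over all 58 libraries, so it is not on the same scale as the vehicle CPM above. Cyp2e1 ran between 6930 and 16600 CPM in dosed liver and 1610 and 3160 CPM in dosed kidney. Ggt1 ran between 0.0321 and 0.629 CPM in dosed liver and 1400 and 2140 CPM in dosed kidney, and Slc22a6 between 0 and 0.36 CPM and 1220 and 2100 CPM. The ranges of these 3 genes stayed apart. Those of Cyp4a10 (38.8 to 7950 CPM in dosed liver, 168 to 2500 CPM in dosed kidney), Cyp4a14 (4.56 to 11000 and 4.57 to 1670 CPM) and Acot1 (14.6 to 204 and 45.8 to 405 CPM) overlapped.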

How the data were processed

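The deposited tables, 1 for each tissue, hold raw read counts for 33392 RefSeq transcripts with 1 column a library, per the file headers. Columns of some dosed groups carry a decimal dose line, so the unit of those deposited values was set to expected counts, although all were whole and rounding changed none. Per the submitters' processing notes, mm10 was the build and CASAVA 1.8.2, HTSeq and TopHat2 2.0.10 were used, with no roles stated. Annotation version, strand and filters are not given in the sources used here. Reads that matched several features (19.68 to 22.55% of a library) or none (14.56 to 23.64%) were left out, which lowers genes with overlapping transcripts, and antisense partners cannot be told apart.

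By accession, 32988 transcripts matched the GRCm38.p6 RefSeq gene table, 278 kept a deposited symbol and 126 no name, and counts were summed to 24122 genes (Python 3.11.15, pandas 2.3.3). Liver was tested against kidney with edgeR 4.0.16 in R 4.3.3, with limma 3.58.1: TMM (factors 0.577 to 0.78 in liver, 1.45 to 1.51 in kidney), filterByExpr, a robust quasi-likelihood fit with no covariate, the F test and glmTreat against a fold of 2, both two-sided with Benjamini-Hochberg adjustment at 0.05. CPM uses the normalized library sizes. A gene with no count in a tissue has a floor of 3 counts over the group (0.00673 CPM in liver, 0.0147 CPM in kidney), and intervals cover counting error only. All replicate pairs differed by more than sampling noise. Liver libraries held on average 3.8 times the counts of kidney libraries, so low kidney values are the less precise.

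The rule for named genes takes in each of 18 function lists the 3 members with the largest fold change in each direction, past a fold of 2 and with a mean of at least 1 CPM, the 8 genes of highest CPM in each tissue, and 22 fixed genes. Some genes that the rule names are not reported here, which leaves 125, with 7 of highest CPM in kidney and 17 fixed genes. Other members named were chosen after their values were seen. The members and the lists were chosen with earlier results of these data known. Cyp2c44, Nat8b and Ly6g were not matched and are not used here. Alternatives were DESeq2 1.42.0, other scalings and filters, thinning, single vehicle sets, a replicate block and leaving out libraries.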

Additional observations from a re-analysis of the deposited data

Results flagged for a closer look

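Single libraries far from the rest of their group were found for 18 of 181 groups tested. A group was a named gene in an organ where its mean was at least 1 CPM. Genes with a lower mean in an organ were not tested there. Chance would flag about 1 in 20 groups if values were normally distributed. The test used CPM without a log scale, so the rate of chance flags here is not known. Values of 1 library are shared by related genes.

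Liver genes in kidney library 2 made up 7 of these. That library had 54.3 CPM of Alb, 40.7 CPM of Trf, 8.99 CPM of Serpina3k, 8.49 CPM of Bhmt, 7.94 CPM of Serpina1e, 7.51 CPM of Mup8 and 7.09 CPM of Mup7, and the next highest kidney values were 13.9, 12.3, 1.61, 2.9, 2.34, 1.49 and 1.8 CPM. Without it the log2 fold change was 13.71 for Alb, against 12.61 with all libraries, and 15.69 for Mup7, against 14.06. The summed hepatocyte markers of that library were 453 CPM, against 303 to 405 CPM in the other 4, and its fat markers 119 CPM.

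Kidney library 1 held 4. It had 9.3 CPM of Cyp2b10, 5360 CPM of Slc27a2, 4.43 CPM of Slc34a2 and 4.66 CPM of Slc6a12, with next values of 3.61, 4360, 2.19 and 1.05 CPM.

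Liver library 1 held 4, with 2330 CPM of Apof, 1500 CPM of Apon, 43000 CPM of Serpina1e and 3.83 CPM of Oxct1, and next values of 1450, 983, 27200 and 3.21 CPM. Its acute phase genes summed to 137000 CPM. Liver library 17 had 213 CPM of Gstm3 and 688 CPM of Kyat1, with next values of 130 and 428 CPM. Liver library 16 had 50.8 CPM of Onecut1, with a next value of 16.4 CPM.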

How the results depend on the processing

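The 4 counts over all genes stayed within 1.5 times under every alternative except library totals without composition normalization, chosen after seeing the data, where 1846 genes were higher and 10032 lower in liver, and 1233 and 5781 past a fold of 2. That scaling moved 12 of the 14 list counts that moved by more than 1.5 times, and the PCE set alone moved the other 2 (mercapturate enzymes higher in liver, 3, and beta-oxidation genes lower, 5). Leaving out each library in turn gave 4386 to 4818 genes higher and 4712 to 4955 lower, and 1993 to 2145 and 2728 to 2890 past a fold of 2. DESeq2 gave 1930 and 2810 past a fold of 2, thinned liver counts 1857 and 2560, the TCE set 1908 and 2695 and the PCE set 1740 and 2476. Chosen after seeing the data as well, genes with 1 transcript gave 1759 and 2369, without liver libraries 1 and 3 there were 1921 and 2689, and without 1 and 17 there were 2035 and 2800. No gene called past a fold of 2 was called in the opposite direction under any of these.

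Same-numbered libraries did not deviate together (correlations of -0.272 to 0.094 over 5 pairs, and 1 kidney library correlated best with its own number), and the labels do not say whether they share an animal, so no pairing was assumed. The replicate block gave 4177 genes higher and 4692 lower, and 1977 and 2735 past a fold of 2, and among named genes lost the call of Pklr alone (2.02).

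Of the named genes, values changed sign for Cyp4a14 (main -0.10; 0.21 in the PCE set, 0.38 without liver libraries 1 and 3, 0.17 without 1 and 17, and -0.51 to 0.12 without 1 library, above 0 without liver library 1 (0.09), 3 (0.12) or 18 (0.06) or kidney library 2 (0.07)), Hnf4a (0.01 without liver libraries 1 and 17) and Gstz1 (-0.18 with library totals). The cause was not tested. Among single gene values, 17 lost and 5 gained a call past a fold of 2. The 5 kidney libraries had 23462407 to 31858055 counts, which limits genes near the floor.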
